A study of Mus musculus with 2 samples.

Results

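Immature granule-making neutrophils were followed among CD45+ leukocytes sorted from mouse cochleae, as 183 of 1285 cells that carried a single hashtag (singlets). They were chosen by their own RNA: at least 300 unique molecular identifiers (UMIs, each a counted mRNA molecule) of the granule genes Camp and Ngp together per 10000 gene UMIs, and fewer than 5 UMIs of the earlier granule genes Mpo and Elane together. Cells were sorted from 4 conditions, which were sham, day 3, day 7 and day 14 after noise, with cochleae of 6 mice pooled in each. The labels call the control both sham treated and untreated, and give no genotype, strain, age or sex. They do not say whether marrow was removed from the bone around the cochlea. Of the members, 26 came from the sham pool, 117 from day 3, 15 from day 7 and 25 from day 14.

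Neutrophils form their granules in sequence as they mature in the bone marrow. Azurophil (primary) granules, with Mpo, Elane, Prtn3 and Ctsg, are filled by dividing progenitors. Specific (secondary) granules, with Camp, Ngp, Ltf and Lcn2, are filled at the myelocyte and metamyelocyte stages under the transcription factor Cebpe, around the time when division ends. Gelatinase (tertiary) granules, with Mmp9, and the receptors used for chemotaxis come last, before release into the blood.

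The results turn on genes of 3 of these stages and on genes of cell division. The 250 bases before the start of Fcnb, Ltf and Mmp8 are shown because these genes stand for an earlier, the selected and a later stage. Those of Ube2c and Cdk1 stand for genes of mitosis, the list that set the cycling members apart most. Sequences are from RefSeq on GRCm38.p6, 5′ to 3′ on the strand of the gene. Capitals mark TTGCNNAA, a form of the C/EBP motif, on either strand in the first 3, and the CCAAT box (CCAAT) or cell cycle homology region (TTTGAA) on either strand in the others, where neighbouring matches can overlap.
Fcnb, chr2:28084879-28085128, minus strand: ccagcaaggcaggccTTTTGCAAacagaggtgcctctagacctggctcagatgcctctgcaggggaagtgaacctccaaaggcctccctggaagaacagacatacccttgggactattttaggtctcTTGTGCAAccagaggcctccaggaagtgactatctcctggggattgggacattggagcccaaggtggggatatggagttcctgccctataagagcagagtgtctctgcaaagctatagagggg
Ltf, chr9:111019042-111019291, plus strand: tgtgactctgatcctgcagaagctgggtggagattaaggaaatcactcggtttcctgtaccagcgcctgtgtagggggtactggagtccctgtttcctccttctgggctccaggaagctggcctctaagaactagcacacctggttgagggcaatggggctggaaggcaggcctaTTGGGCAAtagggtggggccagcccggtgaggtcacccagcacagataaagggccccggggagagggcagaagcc
Mmp8, chr9:7558179-7558428, plus strand: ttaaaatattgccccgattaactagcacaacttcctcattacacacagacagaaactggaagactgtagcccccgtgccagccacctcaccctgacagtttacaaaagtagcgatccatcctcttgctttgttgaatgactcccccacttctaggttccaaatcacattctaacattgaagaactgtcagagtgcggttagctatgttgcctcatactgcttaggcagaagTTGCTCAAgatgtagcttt
Ube2c, chr2:164769679-164769928, plus strand: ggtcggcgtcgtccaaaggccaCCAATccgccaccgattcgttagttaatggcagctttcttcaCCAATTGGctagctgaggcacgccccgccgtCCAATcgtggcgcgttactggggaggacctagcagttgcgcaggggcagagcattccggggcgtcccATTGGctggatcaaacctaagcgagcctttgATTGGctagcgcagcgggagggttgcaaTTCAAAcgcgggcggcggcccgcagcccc
Cdk1, chr10:69352913-69353162, minus strand: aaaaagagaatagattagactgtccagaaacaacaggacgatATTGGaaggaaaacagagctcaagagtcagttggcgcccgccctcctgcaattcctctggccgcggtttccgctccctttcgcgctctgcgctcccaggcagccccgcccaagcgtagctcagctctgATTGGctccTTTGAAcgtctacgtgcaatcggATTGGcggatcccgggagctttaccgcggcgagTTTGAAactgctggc
Fcnb held 2 matches to TTGCNNAA in this window, and Ltf and Mmp8 held 1 each. The letters stood in 4 of the 14 specific granule genes with a sequence (28.6%), against 9.55% of all 27025 promoters of this length. Of 32 mitosis genes with a sequence, 25 (78.1%) held CCAAT, against 34.5% of all promoters, and 12 (37.5%) held TTTGAA, against 16.3%. Not every promoter of these lists held a match: Birc5 and Nusap1 had 0 of the CCAAT and TTTGAA letters in their windows, and Camp and Chil3 had 0 of the TTGCNNAA letters. A match is a description of letters and not a site of binding. The windows follow RefSeq starts, and the GENCODE annotation places the starts of Camp, Ngp, Lcn2, Fcnb, Ltf, Mmp8 and Ube2c elsewhere. By GENCODE the Camp, Ngp, Fcnb, Ltf and Ube2c windows lie partly, and the Lcn2 window wholly, inside the gene. The TTCAAA marked in Ube2c lies after its GENCODE start. Matches before the GENCODE starts were not tested, so the counts hold for RefSeq starts alone.

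Each condition is 1 pool, so no test between conditions was possible. The intervals given are at 95% and reflect counting of UMIs or cells alone, not the spread between mice, and all days share the sham pool. Fewer cells of a stage and less RNA per cell are separate quantities here: shares count cells, and ratios compare UMIs within members. The 183 members held 3319494 gene UMIs, with 707 to 65601 per cell and a median of 16402, against medians of 33454 in 61 Mpo/Elane-rich singlets (at least 5 UMIs of both genes together) and 6383.5 in 288 S100a8/9-rich singlets (at least 300 UMIs of these genes, abundant in mature neutrophils, per 10000). The S100a8/9-rich class held only cells under 300 UMIs of Camp and Ngp per 10000 and under 5 UMIs of Mpo and Elane. Members with the lowest Camp and Ngp sums had 311, 314 and 322 UMIs per 10000, and the nearest singlets outside the rule had 299, 291 and 290. A further 7 singlets passed the Camp and Ngp minimum, were left out for Mpo and Elane, and were counted in the Mpo/Elane-rich class. Cells of that class had a median of 1.04 Camp and Ngp UMIs per 10000 and a maximum of 958. Its summed Camp level is therefore not that of its typical cell.

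The label was checked against genes of the neighbouring stages, over UMI sums per 1000000 gene UMIs (CPM). Camp, which codes for the antimicrobial peptide CRAMP, stood at 40490 CPM in members, 6571 CPM in Mpo/Elane-rich singlets, 3396 CPM in S100a8/9-rich singlets and 70.4 CPM in the other singlets. Ltf (lactoferrin, an iron-binding granule protein) stood at 8748, 21.9, 1774 and 12.1 CPM in the same 4 classes, and Cebpe at 455, 219, 66.4 and 1.94 CPM. Camp was part of the rule, which fixed its place. Ltf and Cebpe were not, and were highest in the members, although they were measured in the same cells. Prtn3, an azurophil granule protease, had 9.64 CPM in members against 5018 CPM in Mpo/Elane-rich singlets. Retnlg, a secreted protein of mature neutrophils, had 5876 CPM in members against 38671 CPM in S100a8/9-rich singlets. Il1b, a cytokine of activated mature cells, had 47.9 CPM in members against 2054 CPM in S100a8/9-rich singlets. The members were thus low in genes of the earlier and of the later stage beside the class where each is high. The limits on Camp, Ngp, Mpo and Elane, which split these classes, fixed this in part. The Mpo/Elane-rich class is not one stage, since it also held basophil and mast cell markers at 1831 CPM, against 0.603 CPM in members.

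**Figure D1:**
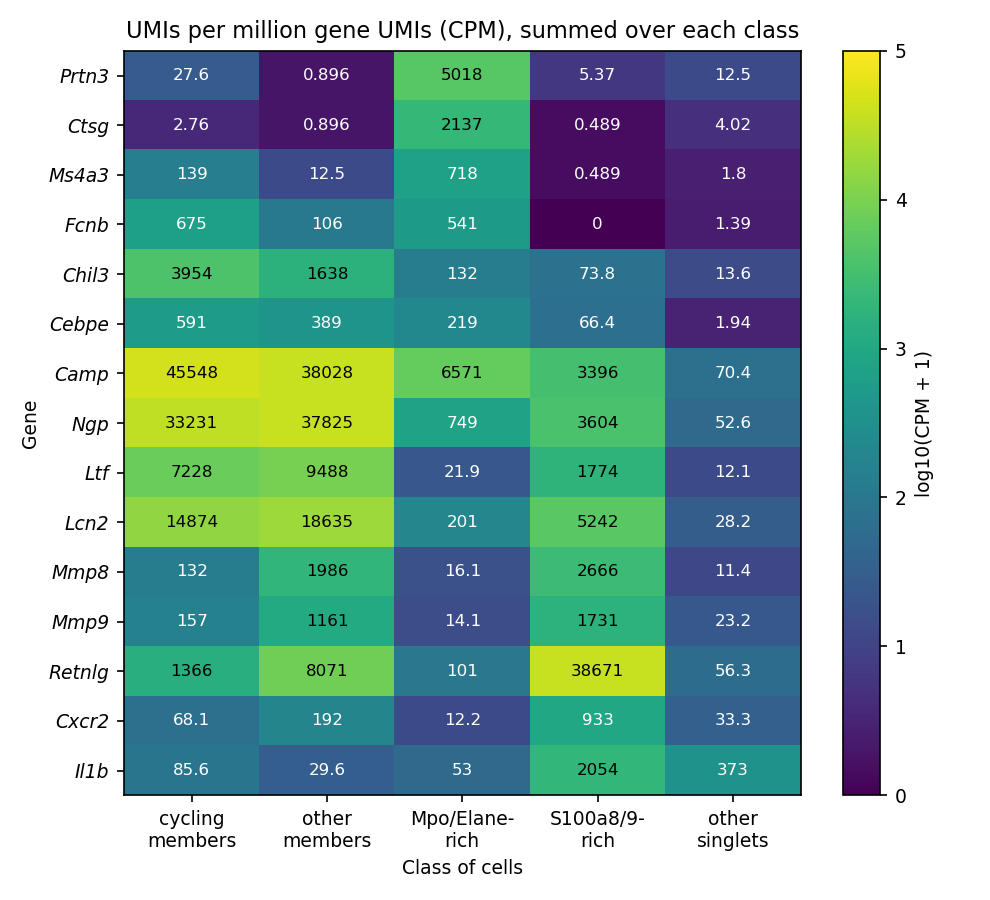
UMIs per 1000000 gene UMIs (CPM) of 15 genes (rows) summed over 5 classes of cells (columns), coloured by log10(CPM + 1), with the CPM printed in each field. Cycling and other members share high Camp, Ngp, Ltf and Lcn2, while Mmp8 has 132 CPM in cycling members and 1986 CPM in other members.

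Among markers of other cell types, the B cell list summed to 50.3 CPM over the members, the NK cell list to 20.2 CPM and the erythroid list to 3.62 CPM. Single cells held 58.7% of the B cell list and 73.1% of the NK cell list, and these cells were not set aside. The T cell list summed to 271 CPM, of which Cd3d made 258 CPM, while Trac was at 0. The monocyte list summed to 853 to 1373 CPM by pool, lowest on day 14 and highest on day 7. Over all members it was 1013 CPM, against 833 CPM in S100a8/9-rich and 715 CPM in the other singlets. The macrophage list (C1qa, C1qb, C1qc, Adgre1, Csf1r and Mrc1) stood at 0 CPM in sham, 262 CPM in day 3, 4.26 CPM in day 7 and 3.78 CPM in day 14 members. On day 3, 1617 of 1644 UMIs of Apoe and the C1q genes lay in 2 of 117 members, 1 of them a cycling cell with 65601 UMIs. Values that rest on these 2 cells are given below with and without them.

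Members made up 7.62% of sham singlets, 21.2% of day 3, 6.94% of day 7 and 14.1% of day 14 singlets. The Clopper-Pearson intervals were 5.04 to 10.97%, 17.9 to 24.9%, 3.94 to 11.2% and 9.35 to 20.1%. The day 3 share was 2.78 times that of sham (1.81 to 4.44), and the day 14 share 1.85 times (1.03 to 3.34). Day 7 and sham could not be told apart at these cell numbers, with a ratio of 0.911 (0.448 to 1.78). Over members, Mpo/Elane-rich and S100a8/9-rich singlets together, a base that also holds basophil or mast cells by their markers, members made up 29.9, 41.9, 16.7 and 32.9% in the order of time. On that base the day 3 ratio was 1.40 (0.911 to 2.24), so by this interval a difference from sham was no longer beyond counting error. Intervals of ratios of shares are Poisson intervals, which run wide where shares are large. S100a8/9-rich cells had a day 3 share of 24.3% and a sham share of 14.4% of singlets, a ratio of 1.69 (1.21 to 2.40).

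Division marked a distinct set of members. Mki67, a marker of cells outside rest, and Top2a, the topoisomerase that untangles sister chromosomes, gave no UMI in 140 of 183 members, and 8 members had 1 UMI, 1 had 2 and 1 had 3. The next member had 6 UMIs. With the limit at 3 UMIs, 34 members (18.6%) were cycling, and few cells lay near it. Of the comparators, 36 of 61 Mpo/Elane-rich cells reached the limit, as did 0 of 288 of the shallower S100a8/9-rich cells, which allows a share of up to 1.04% by a limit of 3 cells and up to 1.27% by the Clopper-Pearson interval.

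Cycling members were 2 of 26 in sham (7.69%, 0.946 to 25.1%), 21 of 117 on day 3 (17.9%, 11.5 to 26.1%), 0 of 15 on day 7 and 11 of 25 on day 14 (44.0%, 24.4 to 65.1%). The 0 of day 7 allows a share of up to 20.0% by a limit of 3 cells, and up to 21.8% by the Clopper-Pearson interval. The day 14 share was 5.72 times that of sham, with a wide interval (1.25 to 53.1), and the day 3 share 2.33 times (0.570 to 20.5). Day 14 thus differed from sham beyond counting error while day 3 did not, and no test compared the days. Cycling members were deeper, with a median of 31217.5 UMIs against 15456 UMIs in the others. When each member was thinned to 3000 UMIs, 0 of 26 sham, 13 of 113 day 3, 0 of 15 day 7 and 8 of 23 day 14 members reached 3 UMIs, with 4 day 3 and 2 day 14 members left out as too shallow. At 10000 UMIs and a limit of 1 UMI, the shares were 12.5, 24.5, 0 and 52.2% in the order of time, so that day 14 stayed highest.

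**Figure D2:**
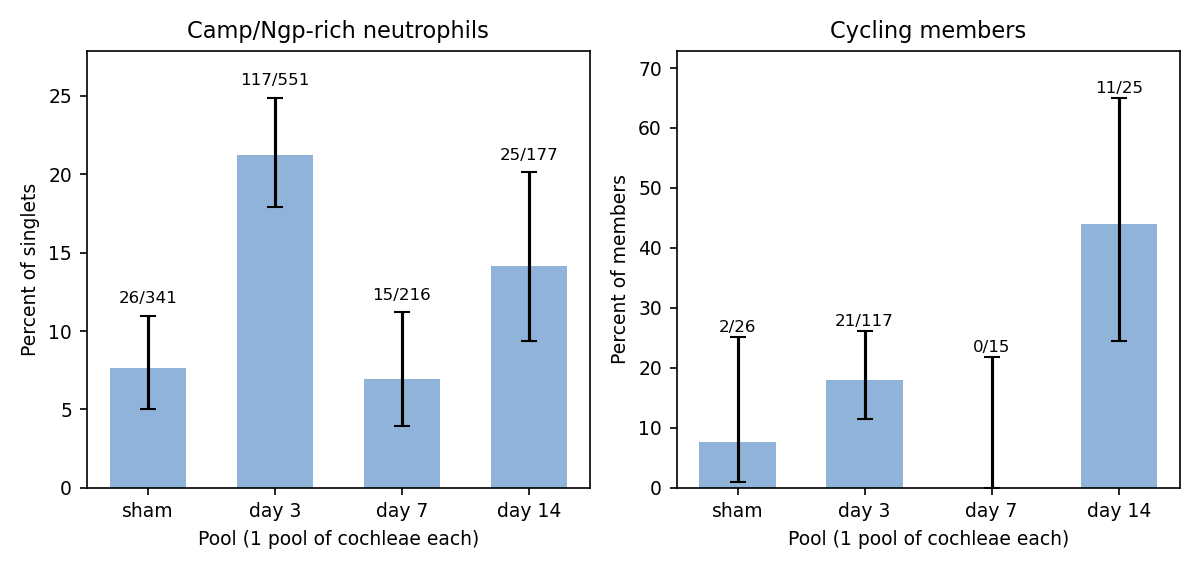
Left, members as a percentage of the singlets of each pool; right, cycling members as a percentage of members. Bars show the share, lines the Clopper-Pearson 95% interval for counting error, and labels the counts. Members reach 21.2% of day 3 singlets, and cycling members 44.0% of day 14 members.

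The 2 sham cycling members held more RNA of replication genes and less of mitosis genes than the median cell of day 3 and day 14. Summed over the lists of G1/S and DNA replication genes, both sham cells held 34.7 and 43.8 UMIs per 10000, against a median of 10.8 in the 11 day 14 cells and 14.0 in the 21 day 3 cells. Summed over mitosis genes, the sham cells held 55.9 and 70.8 UMIs per 10000, against medians of 169 on day 14 and 131 on day 3. The pools overlapped: 7 of 21 day 3 cells and 0 of 11 day 14 cells reached the lower sham value of replication genes, and 4 day 3 cells and 1 day 14 cell were at or under the higher sham value of mitosis genes. Another 2 sham members held at least 10 UMIs per 10000 of replication genes without reaching the Mki67 and Top2a limit, and no non-cycling member of the other pools did.

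Cycling members were compared with other members over 6483 genes with at least 20 UMIs. A gene was called where the ratio of UMI sums per total was at least 1.5-fold with its interval beyond 1, and 1891 genes (29.2%) were called higher and 852 (13.1%) lower, with a median log2 ratio of 0.23. Without the day 3 pool, 906 genes were called higher and 620 lower, over fewer measured genes (4112). Because Mki67 and Top2a chose the cells, every value here is a description. All 40 mitosis genes and all 26 measured genes of G1/S and replication were higher, with median log2 ratios of 5.53 and 4.00. Birc5 (survivin, of the chromosomal passenger complex) had 292 CPM in cycling members and no UMI in other members, at least 217-fold higher against a floor of 3 UMIs over the group. Ube2c, the ubiquitin-conjugating enzyme of the anaphase-promoting complex, had 443 CPM in cycling and 1.79 CPM in other members. By pool, Ube2c had 17.2, 392.1 and 617 CPM in cycling members of sham, day 3 and day 14. Other members reached at most 5.03 CPM of it in any pool. Rrm2, a subunit of ribonucleotide reductase, had 316 CPM in cycling and 0.448 CPM in other members. Of 11 measured histone genes 10 were higher, among them the replication-dependent Hist1h2ap at 546 CPM in cycling and 5.82 CPM in other members. Histone genes have near-identical copies, so the value of a single one is uncertain.

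Early granule and precursor genes were also higher in cycling members. Of 6 measured azurophil granule genes 5 were higher and 1 lower (median log2 2.51), and of 13 measured early precursor genes 8 were higher and 1 lower (1.27). Ms4a3 and Prtn3 are in both lists, and Chil3 is in the precursor and the specific granule list, so these counts are not separate. Without the members rich in Apoe and C1q, 4 of 5 measured azurophil genes were higher and 1 lower (1.90), and 96.2% of the cycling UMIs of Ctsc, a protease that activates granule proteases, lay in 1 cell. Fcnb (ficolin B, a pattern recognition lectin of early neutrophils) had 675 CPM in cycling and 106 CPM in other members, a ratio of 6.39 (5.51 to 7.43). It had 1202, 652 and 632 CPM in cycling members of sham, day 3 and day 14. In other members it had 199, 78.7, 85.3 and 137 CPM in sham, day 3, day 7 and day 14, below the cycling members in each pool that holds both. Ms4a3, a marker of granulocyte and monocyte progenitors, had 139 CPM in cycling and 12.5 CPM in other members (11.1, 7.36 to 17.2). Prtn3 had 27.6 CPM in cycling and 0.896 CPM in other members, far under the 5018 CPM of Mpo/Elane-rich cells. Cebpe had 591 CPM in cycling and 389 CPM in other members (1.52, 1.37 to 1.68).

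The genes of the selected stage itself were close to level. Camp had 45548 CPM in cycling and 38028 CPM in other members (1.20, 1.18 to 1.21), but as a gene of the rule its level was fixed in part by the choice of cells. Ltf had 7228 CPM in cycling and 9488 CPM in other members (0.762, 0.742 to 0.782), and Lcn2 had 14874 CPM in cycling and 18635 CPM in other members. None of these 3 reached 1.5-fold. Of all 18 specific granule genes 2 were higher, which were the chitinase-like Chil3 (3954 CPM in cycling, 1638 CPM in other members) and the acute phase protein Orm1 (309 CPM in cycling, 142 CPM in other members). Of the 6 that were lower, Ceacam10 had 12.9 CPM in cycling and 101 CPM in other members, and Anxa1, an inhibitor of neutrophil adhesion, 2662 CPM in cycling and 4698 CPM in other members. The members of this list thus moved both ways, with a median log2 ratio of -0.39.

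Late genes were lower in cycling members, in 15 of 20 list members, with a median log2 ratio of -1.37. The 1 that was higher was Il1b, with 62.4% of its UMIs in cycling members held by 1 cell. Mmp8, the neutrophil collagenase, had 132 CPM in cycling and 1986 CPM in other members, a ratio of 0.0667 (0.0561 to 0.0788). In cycling members it had 0 CPM in sham, 208 CPM on day 3 and 2.94 CPM on day 14. Of its 144 cycling UMIs, 141 lay in 3 day 3 cells, 1 of them the cell with 3 UMIs of Mki67 and Top2a. In other members it had 1398, 2112, 2179 and 2036 CPM in the order of time, above the cycling members in each pool that holds both. No Mmp8 UMI was seen in the 2 sham cycling members, whereas 18 of 24 other sham members had one. On day 14, with the cell of 14 Apoe and C1q UMIs left out, 1 of 10 cycling and 11 of 14 other members had one. On day 3, without the cells rich in Apoe and C1q, 4 of 20 cycling and 82 of 95 other members had one. Retnlg had 1366 CPM in cycling and 8071 CPM in other members (0.169, 0.160 to 0.178). One day 3 cycling cell held 40.1% of the cycling Retnlg UMIs, and without the members rich in Apoe and C1q the ratio was 0.110 (0.103 to 0.118). This ratio still rests on few cells: 2 day 3 cycling cells held 135 and 169 Retnlg UMIs per 10000. The latter is the cell with 3 UMIs of Mki67 and Top2a, and no other cycling cell left held more than 3.79. Mmp9 (0.136), Thbs1 (0.0594), the formyl peptide receptor Fpr1 (0.100) and the tissue inhibitor of metalloproteinases Timp2 (0.0824) were lower too. The interleukin receptor antagonist Il1rn had 9.20 CPM in cycling and 78.4 CPM in other members.

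**Figure D3:**
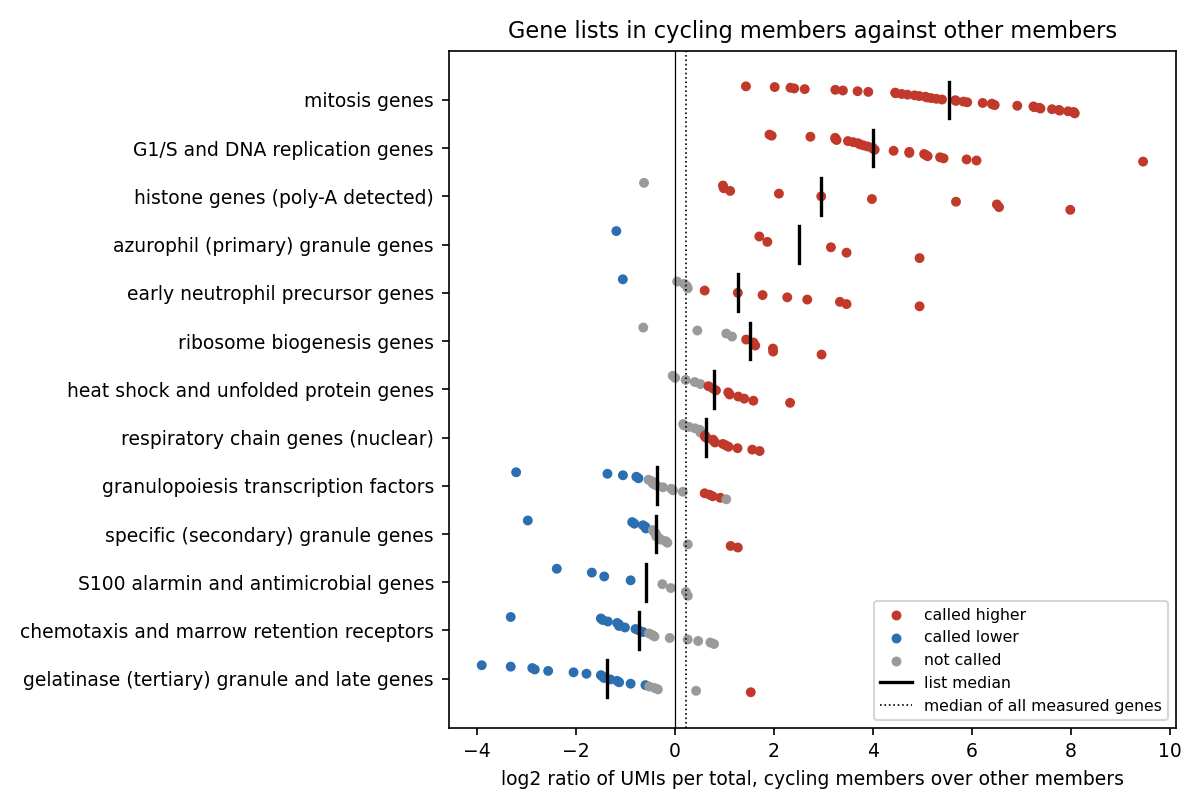
Log2 ratio of UMIs per total, cycling members over other members, for each measured gene (points) of 13 gene lists (rows), coloured by call, with list medians as bars and the median of all measured genes (0.23) as a dotted line. Mitosis genes have a median of 5.53 and gelatinase granule and late genes one of -1.37.

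Receptors and effectors of mature cells were lower or not called. Of 19 receptors of chemotaxis and marrow retention 11 were lower and 0 higher (median log2 -0.73). Cxcr2, the chemokine receptor that promotes release from the marrow, had 68.1 CPM in cycling and 192 CPM in other members. Itgam (CD11b, the integrin alpha M chain) had 262 CPM in cycling and 573 CPM in other members. Of 8 measured S100 and antimicrobial genes 4 were lower, with S100a6 at 397 CPM in cycling and 2076 CPM in other members, and S100a11 at 1257 CPM in cycling and 3384 CPM in other members. Both of these calcium-binding proteins are abundant in mature neutrophils. One cell held 41.1% of the cycling S100a6 UMIs, and without the members rich in Apoe and C1q S100a6 stood at 258 CPM in cycling and 2094 CPM in other members, a ratio of 0.123 in place of 0.191. The 20 day 3 cycling cells then left spanned 0 to 3173 CPM of S100a6, with a median of 27.7 CPM.

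Genes of growth were higher in cycling members. Of 10 measured ribosome biogenesis genes 6 were higher (median log2 1.51), with the nucleolar protein Npm1 at 145 CPM in cycling and 48.4 CPM in other members. Of 20 nuclear-coded respiratory chain genes 12 were higher (0.63), with Ndufa4 at 348 CPM in cycling and 106 CPM in other members. Of 14 measured heat shock and unfolded protein genes 9 were higher (0.80), with the chaperone Hspa8 at 576 CPM in cycling and 237 CPM in other members. None of these 3 lists had a gene called lower. In iron handling, the transferrin receptor Tfrc, which brings iron into dividing cells, had 21.2 CPM in cycling and 4.03 CPM in other members, and Fth1, the heavy chain of the iron store ferritin, had 776 CPM in cycling and 1694 CPM in other members.

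Of 11 measured cell cycle inhibitor and exit genes 4 were higher and 3 lower (median log2 -0.08), shares not far from those over all genes (29.2% and 13.1%). The kinase inhibitors Cdkn2c (82.8 CPM in cycling, 6.27 CPM in other members) and Cdkn1a (67.2 CPM in cycling, 12.1 CPM in other members) were higher. The antiproliferative genes Tob1 (3.68 CPM in cycling, 40.8 CPM in other members) and Btg2 (60.7 CPM in cycling, 210 CPM in other members) were lower, as was Klf2, a factor of quiescence, at 246 CPM in cycling and 509 CPM in other members. Among 19 measured transcription factors of granulopoiesis 4 were higher and 5 lower. Rara, the retinoic acid receptor of granulocyte differentiation, had 2.76 CPM in cycling and 25.5 CPM in other members. The type I interferon list (7 higher and 3 lower of 13, median log2 0.79) changed sign without the members rich in Apoe and C1q, with 1 higher and 6 lower of 9 and a median of -1.28.

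Within the 149 non-cycling members, levels of several of these genes varied together from cell to cell. Over the 143 of them that held 3000 UMIs, thinned to that depth, Spearman's rho was 0.65 between Camp and Ngp, 0.56 between Camp and Chil3 and 0.63 between Retnlg and Mmp8. Camp ran against Retnlg (rho -0.67) and Mmp8 (-0.49). Camp and Ngp are the genes of the rule, so cells low in both are missing from this range, and cells of all pools are mixed in it. Ltf had little relation to Retnlg (-0.16), Mmp8 (0.03) or Mmp9 (0.08). Olfm4, at 0 in 123 of the 149 cells, had rho between -0.14 and 0.09 to each of the other genes compared, and Lgals3 had rho between -0.11 and 0.20.

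**Figure D4:**
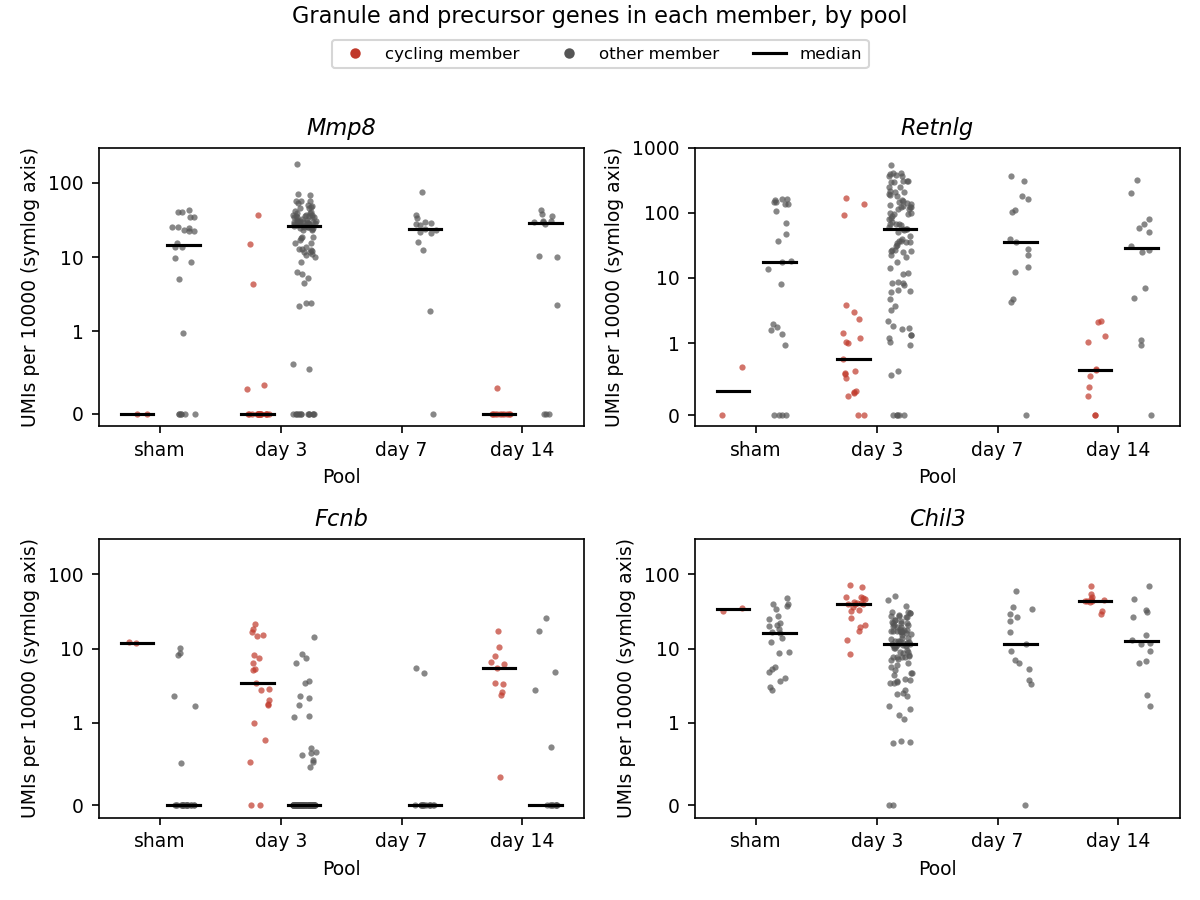
UMIs per 10000 gene UMIs (symlog axis, linear under 1) of 4 genes in each cycling (red) and other (grey) member of each pool, with the median as a line. Day 7 holds no cycling member. Mmp8 and Retnlg are high in other members, and Fcnb and Chil3 in cycling members, in each pool that holds both.

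Members of each day were compared with those of sham, first all together. On day 3, 326 of 5874 genes were called higher (5.55%) and 123 lower (2.09%); on day 7, 137 of 2625 higher (5.22%) and 185 lower (7.05%); on day 14, 410 of 3660 higher (11.2%) and 152 lower (4.15%). The share of cycling members differed between these pools, as given above. On day 14, all 35 measured mitosis genes were higher than in sham (median log2 3.56), with Ube2c at 396 CPM on day 14 and 6.58 CPM in sham, while of 16 G1/S genes 1 was higher and 1 lower (0.07). On day 3, 35 of 40 mitosis genes were higher and none lower (1.99). On day 7, 7 of 8 measured G1/S genes were lower than in sham (-2.04), and the replication helicase gene Mcm6 had 0 UMIs on day 7 against 72.4 CPM in sham. Of the late genes, 5 of 20 were higher and 0 lower on day 3 (0.29), 6 of 16 were higher and 0 lower on day 7 (0.57), and 7 of 16 were lower and 0 higher on day 14 (-0.52). The cycling share was 17.9% on day 3 and 7.69% in sham, a difference not beyond counting error, and no test linked it to the late genes.

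Non-cycling members alone were therefore compared by day. Day 3 then had 149 of 4564 genes higher (3.26%) and 168 lower (3.68%), day 7 104 of 2424 higher (4.29%) and 107 lower (4.41%), and day 14 108 of 2340 higher (4.62%) and 41 lower (1.75%). The granule genes that define the stage were not called on any day: Camp had 40838, 36751, 39685 and 39579 CPM in non-cycling members of sham, day 3, day 7 and day 14, and Ltf 9140, 9313, 10583 and 10170 CPM. Camp is a gene of the rule, so its level in every pool was fixed in part by the choice of cells. Ltf was not part of the rule. Of the late genes, 8 of 20 measured were higher on day 3 and 5 of 16 on day 7, with none lower (median log2 0.47 and 0.44, against 0.02 and 0.03 over all genes), and on day 14 1 of 16 was higher and none lower (0.26, against 0.07).

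Retnlg had 4408, 9301, 8537 and 6029 CPM in non-cycling members of sham, day 3, day 7 and day 14. It was called higher on day 3 (2.11, 2.01 to 2.22) and day 7 (1.94, 1.82 to 2.07), and on day 14 it was at 1.37 (1.27 to 1.47), under the fold of a call. Mmp8 had 1398, 2112, 2179 and 2036 CPM, and was called higher on day 3 (1.51) and day 7 (1.56). Mmp9 had 878, 1195, 1599 and 960 CPM, and was called higher on day 7 alone (1.82, 1.57 to 2.11). By summed UMIs, sham non-cycling members were lowest for all 3 genes, but single cells overlapped, and the median cell had 993 CPM of Mmp9 on day 14 and 1073 CPM in sham. The 2 sham non-cycling members with replication genes held no UMI of Mmp8, Mmp9 or Retnlg. With 27280 and 28720 UMIs, against a median of 16845, they weigh heavily in the sham sums. Without them the sham levels of all 3 genes could only be higher, and the ratios to sham lower. The Mmp8 ratios of 1.51 and 1.56 lie just over the 1.5-fold limit of a call. Whether the calls hold without these 2 cells was not tested. Retnlg spanned 0 to 16481 CPM (median 1758) over sham cells, 0 to 53462 (5527) over day 3 cells, 0 to 36332 (3512) over day 7 cells and 0 to 31200 (2885) over day 14 cells, leaving out the day 3 cell rich in Apoe. One cell held 23.9% of the day 7 Retnlg UMIs. S100a6 had 1257, 2408, 1897 and 1540 CPM in non-cycling members in the order of time. Over all members, Retnlg (0.575), Mmp8 (0.599), Mmp9 (0.485) and S100a6 (0.515) were called lower on day 14 than in sham, so for these 4 the direction turned when cycling members were left out, although none was then called on day 14.

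Of the early precursor list, which was mostly higher in cycling members, few genes were called in non-cycling members after noise: 2 of 11 were lower on day 3 and 1 of 9 on day 7, with none higher, and on day 14 1 of 9 was higher and none lower. Fcnb had 199 CPM in sham, 78.7 CPM on day 3 (ratio 0.396, 0.294 to 0.536), 85.3 CPM on day 7 (0.429) and 137 CPM on day 14 (0.690, 0.425 to 1.09). Orm1 had 274, 116, 154 and 42.2 CPM and was called lower on each day (0.422, 0.560 and 0.154). Hspa8 had 337, 221, 175 and 222 CPM and was also called lower on each day. Ptma, a chromatin protein of proliferating cells, had 189, 70.2, 17.1 and 116 CPM in the order of time, and was called lower on day 3 (0.372) and day 7 (0.0904, 0.0240 to 0.241) but not on day 14 (0.615, 0.364 to 1.00). Because 2 sham non-cycling members carried replication genes, sham holds cells near division that the limit did not remove. These 2, with 27280 and 28720 UMIs, held 10.3 and 8.70 Fcnb UMIs per 10000, and 6 of 24 sham non-cycling members held any Fcnb UMI. The sham Fcnb level and the ratios to it thus rest on few cells. In each pool the median non-cycling member had 0 CPM of Fcnb, with the day 3 cell rich in Apoe left out. The lower Fcnb values on day 3 and day 7 are thus no difference of the typical cell. Ratios without these 2 cells, for Fcnb or the other genes, were not tested.

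Chemokine genes were called higher in 5 of 5 measured list members on day 3 (median log2 3.08 over all members), and in 4 of 4 without the members rich in Apoe and C1q. Cxcl2, which attracts neutrophils, had 165 CPM in day 3 and 41.7 CPM in sham members (3.97, 2.50 to 6.67). Il1b had 74.3 CPM on day 3 and no UMI in sham, at least 11.3-fold higher, and 4.26 and 3.78 CPM on day 7 and day 14. These UMIs were unevenly spread, with 37.2% of the day 3 Il1b UMIs in 1 member. Apoe (551 CPM on day 3, 8.77 CPM in sham) and Ifi27l2a (195 CPM on day 3, 2.19 CPM in sham) lay mostly in the 2 members rich in Apoe and C1q. Without these members, Apoe was at 1.03 (0.338 to 4.17), Ifi27l2a at 22.8 (4.00 to 909) and Il1b still at least 11.7-fold higher. S100a8/9-rich cells held 2054 CPM of Il1b and 1132 CPM of Cxcl2, and the part of free RNA in the members' values was not tested. The NF-kB inflammatory list had 3 of 14 genes higher and 0 lower on day 3 over all members (median log2 0.32), and 2 of 14 without the members rich in Apoe and C1q. In non-cycling members its median was 0.53 on day 3, 0.56 on day 7 and 0.62 on day 14, with 2 of 13, 2 of 7 and 1 of 8 genes called higher.

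Olfm4, a glycoprotein of specific granules that marks only some neutrophils in mouse and human, behaved as present or absent from cell to cell. It gave 0 UMIs in 150 of 183 members and at least 10 per 10000 in 31, with 2 members between, a limit chosen after the values were seen. Among the 31, the lowest, median and highest values were 16.2, 53.6 and 147 UMIs per 10000. High cells made up 3 of 26 sham (11.5%, 2.45 to 30.2%), 14 of 117 day 3 (11.97%, 6.70 to 19.3%), 4 of 15 day 7 (26.7%, 7.79 to 55.1%) and 10 of 25 day 14 members (40.0%, 21.1 to 61.3%). The summed level over all members, 436, 468, 1373 and 1603 CPM in the order of time, had the same order as the share of high cells. Medians among high cells were 29.5, 53.8, 43.0 and 53.8 UMIs per 10000, with only 3 cells in sham. The ratio of the day 14 share to that of sham was 3.47, with an interval that includes 1 (0.893 to 19.6). This Poisson interval runs wide for shares of this size, so it does not settle whether the shares differ beyond counting error. Cells, not UMIs, carry the counting error here, and the UMI ratio of 3.67 (3.14 to 4.31) on day 14 leaves it out.

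The split was also seen in dividing cells, with 6 of 34 cycling members (17.6%) and 25 of 149 other members (16.8%) high in Olfm4. Among S100a8/9-rich cells, 40 of 288 were high (13.9%), with 16.3% in sham, 11.9% on day 3, 15.5% on day 7 and 14.9% on day 14. A further 1, 18, 3 and 6 of these cells in the order of time lay between 0 and the limit, so their shares depend on it, and the difference between the classes was not tested. Olfm4-high and other members had similar depth (medians of 15117 UMIs in high and 16442 UMIs in other members) and similar Camp and Ngp sums (730 per 10000 in high and 797 in other members). Of 6483 genes 119 were called higher (1.84%) and 288 lower (4.44%) in high members. Beside Olfm4 itself the highest by the bound of their interval were Pstpip2 (34.1 CPM in high and 5.37 CPM in other members) and the transcription factor Gfi1 (41.7 CPM in high and 9.31 CPM in other members). The lowest were Apoe and C1qa, whose UMIs lay mostly in the 2 day 3 members named above.

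**Figure D5:**
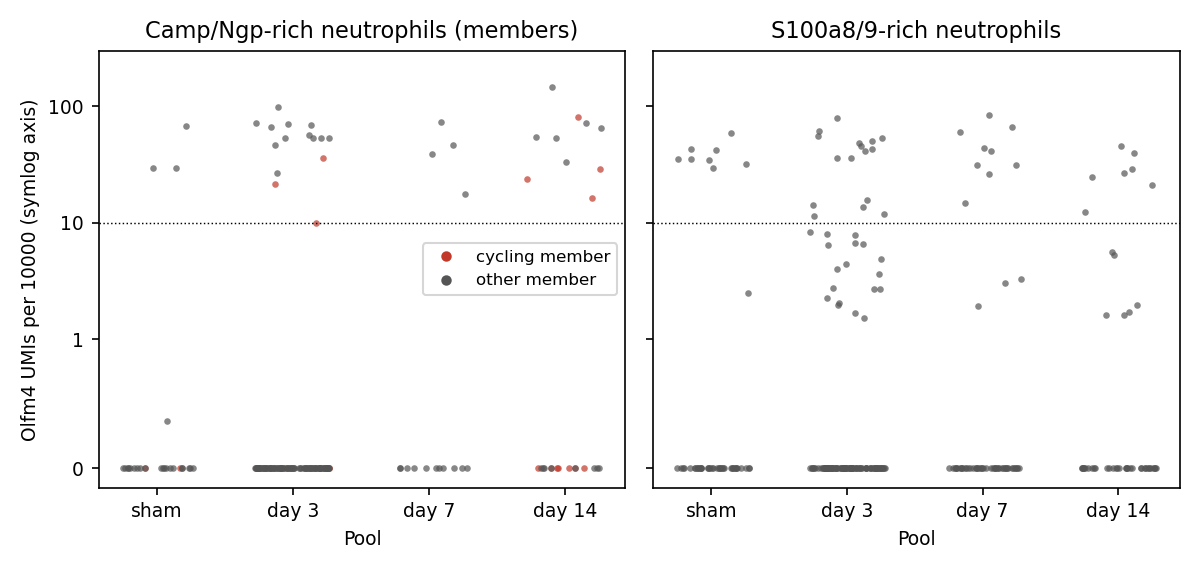
Olfm4 UMIs per 10000 gene UMIs (symlog axis, linear under 1) in each member (left; cycling in red, other in grey) and each S100a8/9-rich singlet (right) of each pool, with the limit of 10 per 10000 as a dotted line. Members lie at 0 or above the limit with 2 between, and 10 of 25 day 14 members are above it.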

How the data were processed

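CD45+ cochlear leukocytes of 4 hashtagged pools, 1 per condition, were measured by droplet single-cell RNA sequencing. The deposited values are raw UMI counts per gene and barcode, written by Cell Ranger 3.1.0 per the file headers, on mm10 per the submitters' processing notes. The labels name 2 kit versions. The cell-calling step is not described in the labels, and no doublet caller was run. Of 1556 barcodes, 1377 had at least 200 genes and at most 10% mitochondrial UMIs, and 1285 of these had a top hashtag with at least 10 UMIs and 80% of hashtag UMIs. S100a8/9-rich cells had at least 300 UMIs of both genes per 10000, under 300 of Camp and Ngp, and under 5 UMIs of Mpo and Elane. Mpo/Elane-rich cells had at least 5 UMIs of Mpo and Elane, whatever their Camp and Ngp. UMIs were summed over cells and compared as ratios with exact conditional Poisson intervals, and shares were given with Clopper-Pearson intervals. Ratios of shares also had exact conditional Poisson intervals, which run wide where shares are large. A gene was measured with 20 UMIs over both sides, and 0 was floored at 3 UMIs. Genes were named by the size of the interval bound nearest to 1, with at least 30 UMIs, and within each list, beside the markers and transcription factors; Olfm4-high cells, Ptma and per-cell values were chosen after their values were seen. Members and gene lists were chosen with earlier results of these data known. Counting was tested on simulated data. With 1 pool per condition there is no replicate, and no p-value is given. Python 3.11.15, numpy 2.4.6, scipy 1.17.1 and pandas 2.3.3 were used.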

Additional observations from a re-analysis of the deposited data

Results flagged for a closer look

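Several genes moved in opposite directions from sham on different days, over all members. Mmp8 was 1.79 times sham on day 7 and 0.599 times on day 14, and Mmp9 2.08 and 0.485 times. Retnlg was 1.80 times sham on day 3, 2.22 on day 7 and 0.575 on day 14, and S100a6 1.66, 1.73 and 0.515 times. Ptma was 2.03 times sham on day 3, 0.0452 on day 7 and 4.25 on day 14. Each day is 1 pool, so the difference between days was not tested, and all ratios share the sham pool. The share of cycling members was 7.69% in sham, 17.9% on day 3, 0% on day 7 and 44.0% on day 14. On day 3, Retnlg and S100a6, both lower in cycling than in other members, were higher than in sham. The day 3 cycling share did not differ from that of sham beyond counting error, and its part in these values was not tested. Without cycling members the day 14 ratios were 1.46 for Mmp8, 1.09 for Mmp9, 1.37 for Retnlg and 1.23 for S100a6.

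Outside the 4 pools, 15 of 92 barcodes that passed the gene and mitochondrial limits but had no single hashtag also passed the Camp and Ngp rule. Of these, 14 held mixed hashtags and 1 held under 10 hashtag UMIs. Their median was 22962 UMIs, against 16402 in members, and 4 of them (26.7%) reached 3 UMIs of Mki67 and Top2a.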

How the results depend on the processing

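No paired analysis was possible because each condition is 1 pool with no replicate. Depth and cell number limit most counts: 15 day 7 members and 2 sham cycling members stand behind several values. One planned setting, which left out cells with 3 UMIs of other-lineage markers, removed 137 of 183 members because neutrophils held Cd3d; a version that did not count Cd3d, added after seeing the data, removed 13. Where the cause of a move is not given, the cause was not tested.

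With that planned setting the day 14 share over sham was 3.85, the day 3 cycling share 28.6%, and the counts (higher and lower) were 828 and 512 for cycling members, 156 and 65 for day 3, 44 and 42 for day 7 and 207 and 87 for day 14. Under it Retnlg stood at 0.765 on day 3 and 0.356 on day 7, and Olfm4 at 0.158 on day 7. Not counting Cd3d, 120 genes were lower on day 7. Over members, Mpo/Elane-rich and S100a8/9-rich singlets together, the day 3 share was 1.40 times sham.

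Thinning to 3000 UMIs left fewer measured genes. The sham cycling share was then 0, and the counts were 338 and 253 for cycling members, 50 and 28 for day 3, 19 and 21 for day 7 and 56 and 23 for day 14, with Mmp8 at 1.06 on day 14 and the glucocorticoid list median at -0.19 on day 3. At 10000 UMIs, 966 genes were higher in cycling members. A minimum of 50 UMIs gave 1231 higher in cycling members, 75 lower on day 3, 76 and 108 on day 7 and 217 and 94 on day 14, and one of 5 UMIs gave 217 and 280 on day 7. Leaving out each pool in turn gave 906 to 1859 genes higher and 620 to 843 lower in cycling members, the lowest without day 3.

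The interferon list in cycling members, 0.79 as reported, had medians of -1.21 without day 3, -0.94 thinned to 10000 UMIs, -0.15 with cells weighted alike, -1.24 without the top cell of each gene, -1.42 at a Camp and Ngp minimum of 600, -1.62 without other-lineage cells (Cd3d not counted) and -1.28 without cells rich in Apoe and C1q.

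Without the top cell of each gene, 32 genes were lower on day 3 and 74 higher on day 7. With no limit on Mpo and Elane, 252 were lower on day 3, 231 higher and 438 lower on day 7 and 244 higher on day 14, with the azurophil list at -0.41 and Hist1h2ap at 0.936 on day 3. Weighting cycling and other members alike gave 911 higher and 290 lower on day 3, and on day 14 Mmp8 at 1.46, Mmp9 at 1.10, Retnlg at 1.38 and S100a6 at 1.23. Non-cycling members alone gave 149 higher on day 3, 107 lower on day 7 and 108 higher and 41 lower on day 14. Mitosis medians were then -0.39 on day 3 and -0.52 on day 14, the histone median -0.47 on day 3, and day 14 ratios were 0.723 for Chil3, 1.46 for Mmp8, 1.09 for Mmp9, 1.37 for Retnlg and 1.23 for S100a6.

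Of the named genes' values under all settings, 704 in the cycling comparison stayed within the reported interval (for genes given as a bound, within 1.5 times of it or farther from 1), and 158 moved beyond it without reversing.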

Other observations

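Cd3d, a chain of the T cell receptor complex, was found in most of these neutrophils, a pattern noticed after the values were seen. It had at least 1 UMI in 166 of 183 members (90.7%), with 86.5 CPM in cycling and 342 CPM in other members. It was in 210 of 288 S100a8/9-rich cells (72.9%, 386 CPM) but in 5 of 61 Mpo/Elane-rich cells (3.41 CPM), whose median depth of 33454 UMIs was above the 16402 UMIs of members. Among the other singlets, 89 of 151 with at least 3 UMIs of other T cell markers held it (401 CPM), as did 19 of 602 without them (5.34 CPM). Other genes of the receptor complex did not go with it in members: Cd3e was in 2 of 183, Cd3g in 6, Trbc2 in 5 and Trac in 0. Cd3e stood at 388 CPM in the 151 singlets with T cell markers, but it was 1 of the markers that chose them, so this level was fixed in part. The source of the Cd3d UMIs in neutrophils was not tested.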
